A study of Mus musculus with 8 samples.

Results

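The Hox genes encode homeodomain transcription factors that give cells of the embryo their position along the head-to-tail axis. In the mouse they lie in 4 clusters, Hoxa on chromosome 6, Hoxb on chromosome 11, Hoxc on chromosome 15 and Hoxd on chromosome 2. Every gene whose symbol is Hoxa, Hoxb, Hoxc or Hoxd followed by a number was taken, which gave 39 of the 47069 genes in the count tables: 11 in Hoxa, 10 in Hoxb, 9 in Hoxc and 9 in Hoxd. Antisense transcripts, microRNAs and other noncoding genes of the clusters were kept apart.

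The Hox clusters are textbook targets of the Polycomb system. Polycomb repressive complex 2 (PRC2) methylates histone H3, and Polycomb repressive complex 1 (PRC1) ubiquitinates histone H2A, at CpG-rich promoters of genes that embryonic stem (ES) cells keep silent for later development. Pcgf3 and Pcgf5 encode related RING finger subunits of variant PRC1, the forms of the complex that lack a chromobox protein. Genes of a cluster carry a number, their paralog group, that runs from the 3′ end, where genes act early and towards the head, to the 5′ end, where genes of group 13 act late and towards the tail.

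Poly-A RNA was sequenced from mouse ES cells of strain C57BL/6 in 4 groups of 2 libraries: Pcgf3KO cells, Pcgf5KO cells, cells labelled as a Pcgf3 and Pcgf5 double knockout (DKO), and wild type cells (WT). The knockouts were made with Cas9, and all groups grew in fetal calf serum with leukemia inhibitory factor on mitomycin-C inactivated mouse embryonic fibroblasts, which can add RNA of their own. The labels do not say whether the libraries of a group came from separate clones or cultures, so p-values measure the spread between these libraries, which may be technical. The 7 complete tables held 12652616 to 19923964 counts each. The WT replicate 1 table breaks off after 8093 genes, so WT is replicate 2 alone unless stated otherwise, and the WT side of each comparison has no replicate check.

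Levels are counts scaled to the library total (CPM, counts per 1000000). Pcgf3 itself had 66.0 and 59.8 CPM in Pcgf3KO, 89.7 and 92.0 CPM in Pcgf5KO, 90.2 and 68.3 CPM in DKO, against 110 CPM in WT. For Pcgf5 the levels were 17.3 CPM in both Pcgf3KO libraries, 11.96 and 8.85 CPM in Pcgf5KO, 14.1 CPM in both DKO libraries and 20.8 CPM in WT. Both transcripts were thus still present in every knockout. The test described further on (edgeR) called Pcgf3 lower in Pcgf3KO than in WT (log2 fold change -0.79, adjusted p = 0.0210) and Pcgf5 lower in Pcgf5KO (-0.94, adjusted p = 0.0292). Neither gene passed in the double knockout (adjusted p = 0.0899 for Pcgf3 and 0.114 for Pcgf5). The DKO libraries were further apart from each other than the libraries of any other group (chi-square per gene 19.97, against 1.94 to 7.04). The 7.04 is that of WT and covers only 2584 genes, since WT replicate 1 breaks off, against 14011 to 14923 genes in the knockouts.

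The promoters are given first, since CpG-rich DNA is where Polycomb complexes are known to bind. RefSeq promoters (build GRCm38.p6, the 250 bases before the transcript start) were matched for 22 of the 39 genes, 24 promoters in all. They held a median of 12.5 CG dinucleotides, within a range of 2 to 35, against a median of 6 over all 32851 promoters of the same length in the table. At or above that overall median were 21 of the 24. A TATAAA motif on either strand was in 4 of the 24 (16.7%), against 12.4% of all promoters. The 4 sequences below, 5′ to 3′ with each CG in capitals, are those of the genes with the highest count in WT (Hoxd13) and in DKO replicate 1 (Hoxd1), and of a pair with no count in any library (Hoxa11, Hoxb8).
Hoxd13 (chr2:74667975-74668224, plus strand): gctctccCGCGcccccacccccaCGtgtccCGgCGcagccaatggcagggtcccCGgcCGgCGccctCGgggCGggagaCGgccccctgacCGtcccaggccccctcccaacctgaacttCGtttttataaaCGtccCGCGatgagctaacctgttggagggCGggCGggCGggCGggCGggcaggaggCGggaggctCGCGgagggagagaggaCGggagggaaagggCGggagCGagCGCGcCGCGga
Hoxd1 (chr2:74762730-74762979, plus strand): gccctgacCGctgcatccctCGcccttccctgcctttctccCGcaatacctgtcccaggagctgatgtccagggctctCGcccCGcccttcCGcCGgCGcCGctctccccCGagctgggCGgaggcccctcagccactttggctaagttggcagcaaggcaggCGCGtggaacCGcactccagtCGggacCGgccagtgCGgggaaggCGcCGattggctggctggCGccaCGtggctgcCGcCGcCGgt
Hoxa11 (chr6:52245811-52246060, minus strand): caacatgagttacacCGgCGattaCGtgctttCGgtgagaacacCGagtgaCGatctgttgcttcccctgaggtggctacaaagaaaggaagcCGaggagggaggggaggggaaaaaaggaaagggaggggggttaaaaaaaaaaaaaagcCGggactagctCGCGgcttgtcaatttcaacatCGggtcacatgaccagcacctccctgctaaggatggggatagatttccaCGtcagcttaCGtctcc
Hoxb8 (chr11:96281655-96281904, plus strand): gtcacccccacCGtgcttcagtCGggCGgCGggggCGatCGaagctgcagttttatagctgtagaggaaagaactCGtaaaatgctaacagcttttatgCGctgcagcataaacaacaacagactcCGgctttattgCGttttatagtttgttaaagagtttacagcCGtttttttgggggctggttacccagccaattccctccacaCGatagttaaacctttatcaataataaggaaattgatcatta
Hoxd13 and Hoxd1 held 31 and 24 CG dinucleotides, and Hoxa11 and Hoxb8 held 13 and 12. All 4 lay at or above the median of all promoters. These 4 were picked by level and do not stand for the set. Hoxa13 held 35 CG dinucleotides with 10 counts over the 7 complete libraries, and Hoxa7 held 7 with 55 counts. A link between CG number and level was not tested.

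The Hox genes were at or near 0 in all 4 groups. Together the 39 genes gave 610 counts over the 7 complete libraries, out of 123643206, and no gene passed 32 counts in any library. In 6 genes no library had a count (Hoxa11, Hoxb2, Hoxb3, Hoxb6, Hoxb8 and Hoxd3). A count of 0 allows up to 3 counts, which is 0.151 to 0.237 CPM in these libraries. In 17 genes, those 6 included, no library had more than 1 count, and in 29 none had more than 5. Counts were above 0 in all 7 libraries for 8 genes, among them Hoxa7, Hoxb4, Hoxb9, Hoxc13, Hoxd1, Hoxd9 and Hoxd13. The share of genes that reached 1 CPM in any library was 5.13% of the Hox genes (2 of 39) and 61.7% of the 21560 protein-coding genes in the tables. The median level over the libraries was 0.0243 CPM for Hox genes and 3.88 CPM for protein-coding genes. Genes at 0 everywhere were not more frequent among the Hox genes, with 15.4% against 18.4% of protein-coding genes, so the clusters held many genes with a few counts rather than none.

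**Figure D1:**
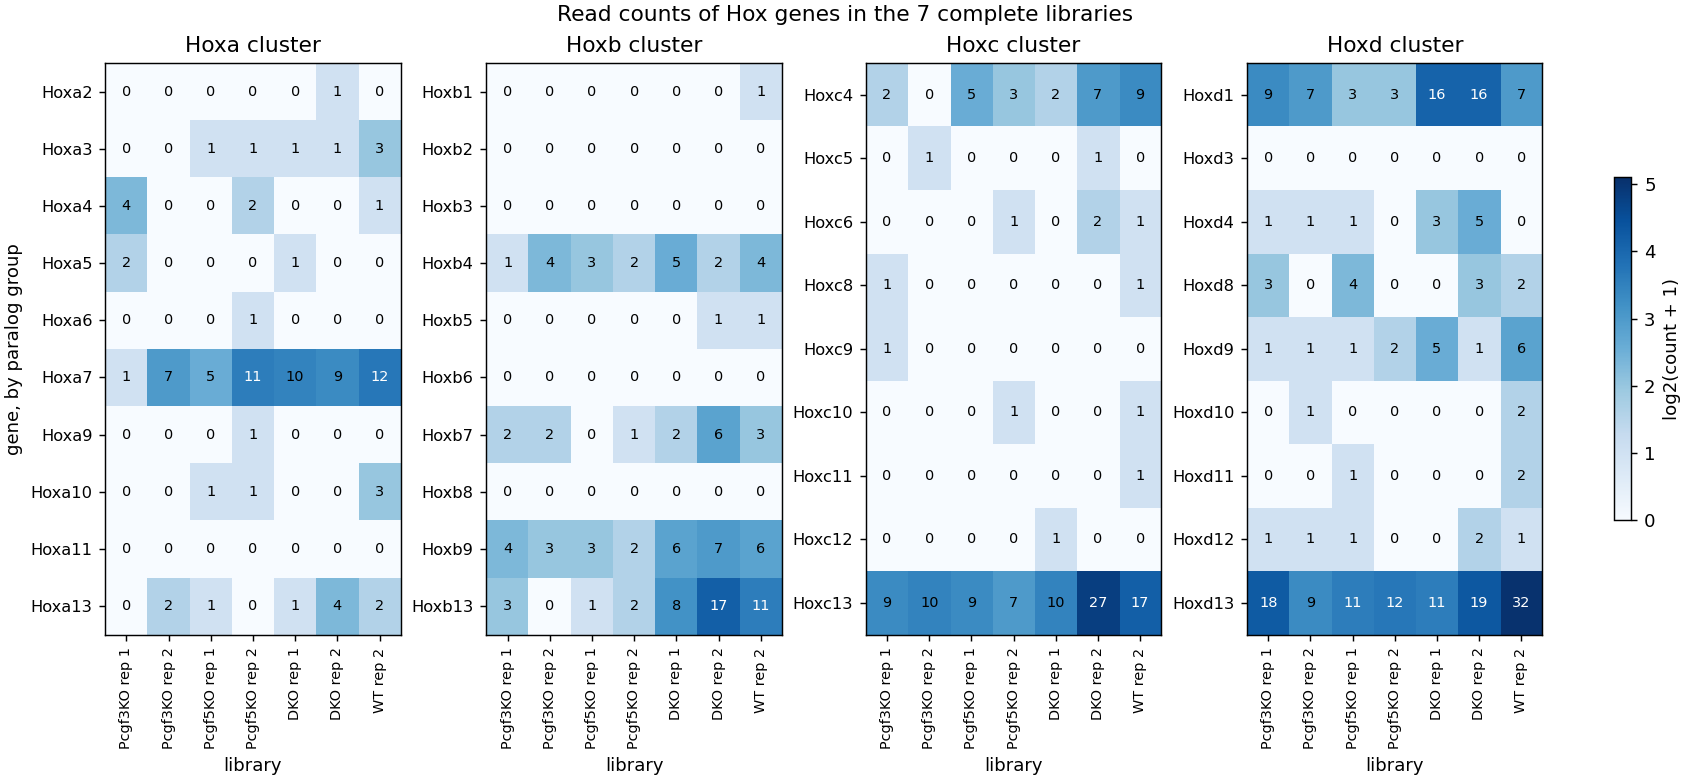
Read counts of Hox genes (down each panel, in order of paralog group) in each of the 7 complete libraries (across), with the number of counts printed in the cell and shaded by log2(count + 1). Most cells hold 0 or 1, and the darker lines are Hoxa7, Hoxb13, Hoxc13, Hoxd1 and Hoxd13.

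At a level of 1 CPM in every library of a group, 0 Hox genes were present in Pcgf3KO, 0 in Pcgf5KO, 0 in DKO and 1 in WT (Hoxd13). At 0.5 CPM the numbers were 0 in Pcgf3KO, 2 in Pcgf5KO (Hoxc13, Hoxd13), 3 in DKO (Hoxc13, Hoxd1, Hoxd13) and 5 in WT (Hoxa7, Hoxb13, Hoxc4, Hoxc13, Hoxd13). WT rests on 1 library, which makes its condition easier to meet. Without DKO replicate 1 the number at 1 CPM in DKO was 1 (Hoxc13). At 0 in every library were 18 genes in Pcgf3KO, 16 in Pcgf5KO, 17 in DKO and 14 in WT. No knockout thus had more Hox genes at these levels in every library than WT. Counted in any library of a group, the numbers at 0.5 CPM were 2 in Pcgf3KO, 3 in Pcgf5KO, 6 in DKO and 5 in WT. At 1 CPM they were 0 in each single knockout, 1 in DKO and 1 in WT. These counts favour the groups with 2 libraries.

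All Hox genes added, the summed level was 3.52 and 3.04 CPM in Pcgf3KO (70 and 55 counts) and 3.34 and 4.35 in Pcgf5KO (58 and 55 counts). It was 4.88 and 7.33 CPM in DKO (89 and 146 counts) and 7.83 in WT (137 counts). WT was above every knockout library, and both DKO libraries were above the 4 single knockout libraries. As a ratio of pooled counts, scaled to pooled library totals, Pcgf3KO stood at 0.421 of WT (95% interval 0.327 to 0.540), Pcgf5KO at 0.480 (0.371 to 0.621) and DKO at 0.786 (0.634 to 0.978). DKO stood at 1.87 times Pcgf3KO (1.499 to 2.342) and at 1.64 times Pcgf5KO (1.30 to 2.07). Intervals of sums and ratios cover counting error only, not the spread between libraries, and no p-value is given for a sum over these genes. The single knockouts overlapped, at 1.14 times for Pcgf5KO over Pcgf3KO (0.878 to 1.49).

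The Hoxa cluster had a mean summed level of 0.767 ± 0.0889 CPM in Pcgf3KO, 1.18 ± 0.452 in Pcgf5KO, 1.30 ± 0.289 in DKO (SD, n = 2 each) and 1.66 in WT. The ratio to WT was 0.461 (0.266 to 0.799) in Pcgf3KO, 0.683 (0.404 to 1.16) in Pcgf5KO and 0.790 (0.491 to 1.30) in DKO, so the counting interval left out 1 in Pcgf3KO only. Hoxa7, which acts in the thoracic region, gave 55 of its 142 counts.

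The Hoxb cluster had 0.501 ± 0.00359 CPM in Pcgf3KO, 0.478 ± 0.106 in Pcgf5KO, 1.40 ± 0.357 in DKO (SD, n = 2 each) and 1.49 in WT. Its ratio to WT was 0.337 (0.176 to 0.633) in Pcgf3KO and 0.314 (0.151 to 0.623) in Pcgf5KO, against 0.952 (0.586 to 1.58) in DKO. DKO stood at 2.83 times Pcgf3KO (1.65 to 5.05) and at 3.04 times Pcgf5KO (1.66 to 5.92), the highest such ratios of the 4 clusters. With DKO replicate 2 alone, DKO lay above WT, with a log2 ratio of 0.16, against -0.08 with both libraries. Hoxb13, which acts in the tail and the prostate, gave 42 of its 113 counts, and Hoxb9 and Hoxb4 gave 31 and 21.

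The Hoxc cluster had 0.631 ± 0.0321 CPM in Pcgf3KO, 0.877 ± 0.101 in Pcgf5KO, 1.28 ± 0.809 in DKO (SD, n = 2 each) and 1.71 in WT. The DKO libraries stood apart here, at 13 and 37 counts. With DKO replicate 2 alone the log2 ratio to WT was 0.11, against -0.42 with both libraries and -1.27 with replicate 1 alone. Hoxc13, needed for hair and nails, gave 89 of its 130 counts, and without it the log2 ratio of Pcgf3KO to WT was -2.53, against -1.44.

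The Hoxd cluster had 1.38 ± 0.391 CPM in Pcgf3KO, 1.30 ± 0.0553 in Pcgf5KO, 2.11 ± 0.275 in DKO (SD, n = 2 each) and 2.97 in WT. Its ratio to WT was 0.470 (0.314 to 0.702) in Pcgf3KO, 0.437 (0.281 to 0.674) in Pcgf5KO and 0.714 (0.498 to 1.03) in DKO. Hoxd13, which shapes the digits, gave 112 of its 225 counts. Without Hoxd13 the log2 ratio of DKO to WT was 0.22, against -0.49 with it, so the lower DKO value of this cluster rested on that gene.

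**Figure D2:**
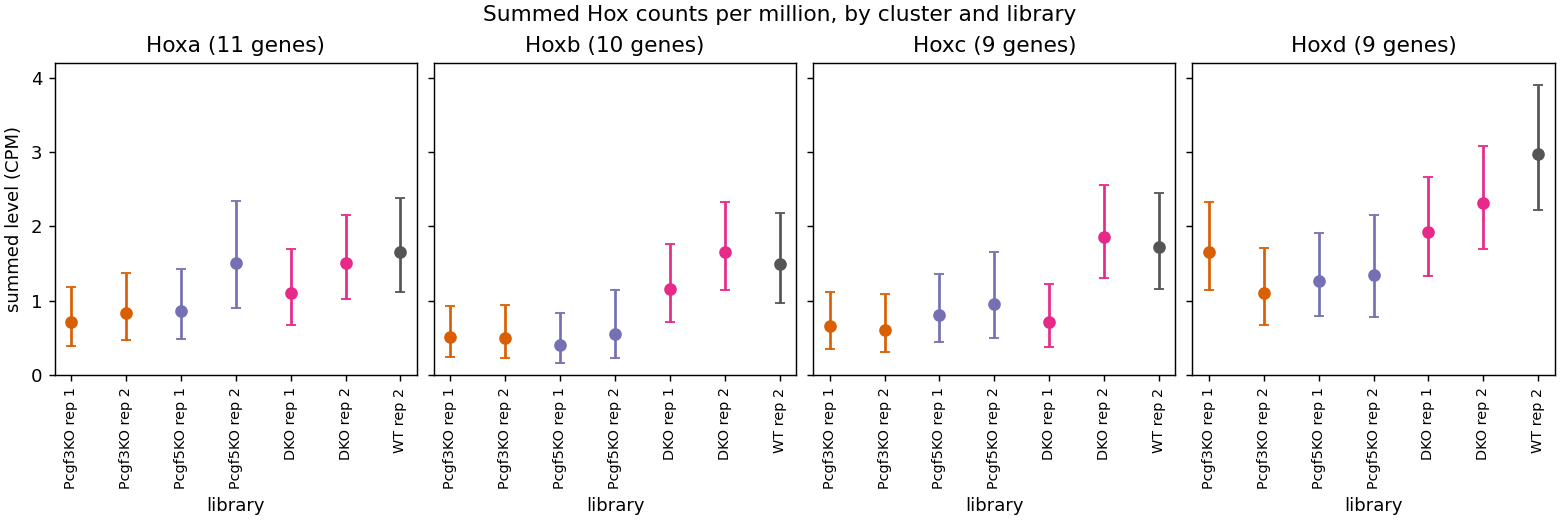
Summed level of each Hox cluster (CPM, vertical axis) in each complete library (horizontal axis), with bars for the exact Poisson 95% interval of the summed count. Pcgf3KO and Pcgf5KO lay below WT in each cluster, and Hoxb was near 0.5 CPM in both single knockouts, against 1.40 in DKO and 1.49 in WT.

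Level differed between paralog groups, though not alike in every cluster. To compare genes, counts were divided by exon length. The 4 genes of paralog group 13 (Hoxa13, Hoxb13, Hoxc13, Hoxd13) held 41.5% of all Hox counts with 9.35% of the exon bases, a level of 0.213 CPM per kb. This came from Hoxd13, Hoxc13 and Hoxb13 (0.365, 0.292 and 0.154 CPM per kb). Hoxa13 had 10 counts and 0.0327 CPM per kb, below Hoxa7 (0.155), so the 5′ end gene was not the highest in Hoxa. The 32 genes of groups 2 to 12 held 39.8% of the counts with 84.4% of the exon bases (0.0226 CPM per kb). Within those groups, group 7 stood at 0.130 CPM per kb, from Hoxa7 and Hoxb7, and group 4 at 0.0560. The signal came mostly from few genes: Hoxd13, Hoxc13, Hoxd1 and Hoxa7 together gave 52.0% of all Hox counts.

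**Figure D3:**
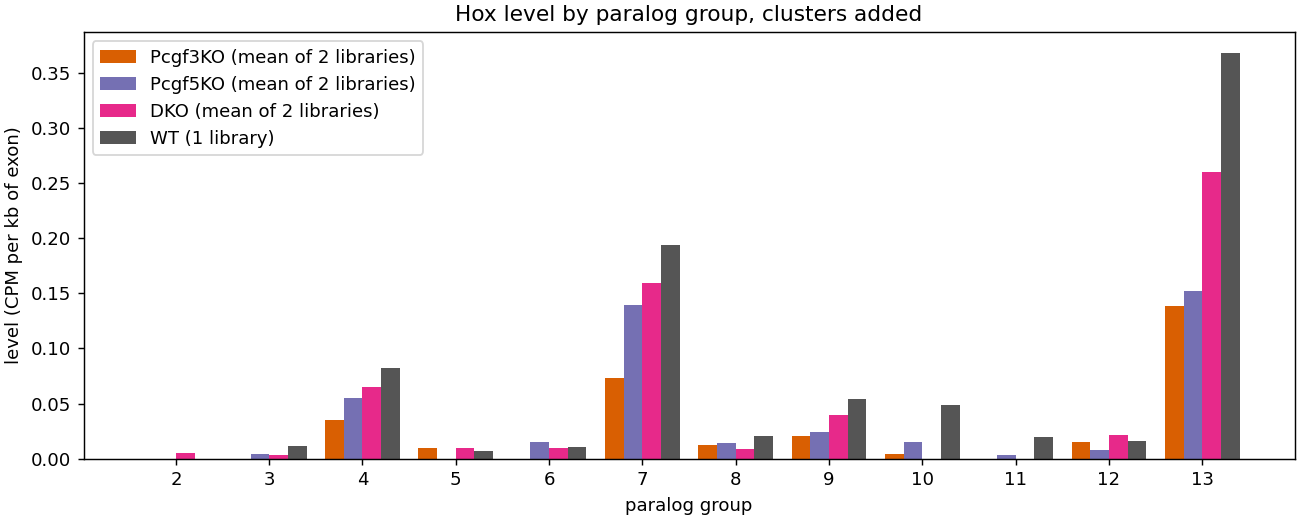
Level per kb of exon (CPM per kb, vertical axis) of Hox paralog groups 2 to 13, all clusters added (horizontal axis, from the 3′ to the 5′ end); bars are the mean of 2 libraries for Pcgf3KO, Pcgf5KO and DKO, and 1 library for WT. Of the groups plotted, 7 and 13 are the highest, and both have their highest bar in WT.

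Group 13 summed to 1.34 ± 0.246 CPM in Pcgf3KO, 1.46 ± 0.279 in Pcgf5KO and 2.50 ± 1.21 in DKO (SD, n = 2 each), against 3.54 in WT. For group 13 the DKO to WT ratio was 0.717 (0.516 to 1.003).

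Differences of single genes were tested with edgeR's quasi-likelihood test over all 15669 genes that passed its filter on low counts, with Benjamini-Hochberg adjustment and a threshold of 0.05. Only 6 Hox genes passed the filter, among them Hoxa7, Hoxb13, Hoxc13, Hoxd1 and Hoxd13, and 33 were too low to be tested. A gene can pass the filter through the group where it is high, so these 6 do not stand for the 39. With edgeR, 0 of the 6 were called in Pcgf3KO against WT, where 2.36% of all tested genes were called, 0 in Pcgf5KO against WT (2.99%) and 0 in DKO against WT (3.22%). Likewise 0 were called in DKO against Pcgf3KO (1.74%), 0 in DKO against Pcgf5KO (2.28%) and 0 in Pcgf5KO against Pcgf3KO (0.14%). At an unadjusted p under 0.05 there were 2, 2, 1, 1, 2 and 0 Hox genes in these comparisons, in the same order. DESeq2 called 0 in DKO against WT, where it gave an adjusted p to Hoxd13 alone (0.578), and gave none to any Hox gene in the other comparisons. Its unadjusted p was under 0.05 for 1 Hox gene in DKO against Pcgf3KO (Hoxb13) and for 0 in the other comparisons. At these shares 6 genes would give fewer than 1 call, and a p that misses the threshold does not show equal levels. The median log2 fold change of the 6 was -1.14 in Pcgf3KO, -0.87 in Pcgf5KO and -0.01 in DKO against WT, beside 0.00, 0.00 and 0.01 over all tested genes. These 3 comparisons share the same WT library.

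Hoxd13 (chromosome 2, 74668310 to 74671599, plus strand, mm10) had the most counts of any Hox gene over the 7 libraries together. Hoxc13 led in Pcgf3KO replicate 2 and DKO replicate 2, and Hoxd1 in DKO replicate 1. Hoxd13 had 0.905 and 0.498 CPM in Pcgf3KO, 0.633 and 0.948 in Pcgf5KO, 0.603 and 0.954 in DKO, and 1.83 in WT. The WT library, with 32 counts, lay above all 6 knockout libraries, which held 9 to 19 counts and overlapped each other. The log2 fold change against WT was -1.35 ± 0.52 in Pcgf3KO (standard error, adjusted p = 0.237), -1.19 ± 0.53 in Pcgf5KO (adjusted p = 0.256) and -1.25 ± 0.51 in DKO (adjusted p = 0.223), so none passed in edgeR.

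The edgeR result for Hoxd13 depended on the DKO libraries, which also set the spread that all comparisons share. Without DKO replicate 1 or 2, Hoxd13 passed as lower in Pcgf3KO than in WT (adjusted p = 0.0303 and 0.0326). Without DKO replicate 2 it passed as lower in DKO (adjusted p = 0.0223). That comparison set 1 DKO library against 1 WT library. The share of all genes called grew as well, to 20.6% and 20.2% in Pcgf3KO against WT (2.36% with all 7 libraries) and to 34.5% in DKO against WT without DKO replicate 2 (3.22%).

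Hoxc13 (chromosome 15, 102921103 to 102928814, plus strand) had 0.453 and 0.553 CPM in Pcgf3KO, 0.518 and 0.553 in Pcgf5KO, 0.548 and 1.36 in DKO, and 0.972 in WT. DKO replicate 2 was the highest and DKO replicate 1 was level with the single knockouts. Its log2 fold changes against WT were -0.93 ± 0.64, -0.81 ± 0.66 and -0.05 ± 0.60 in Pcgf3KO, Pcgf5KO and DKO (standard errors; edgeR adjusted p = 0.547, 0.540 and 0.973). The DKO value was 0.46 without DKO replicate 1 and -0.87 without replicate 2, so its sign depended on 1 library.

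Hoxb13 (chromosome 11, 96194316 to 96197447, plus strand) had 0.151 and 0 CPM in Pcgf3KO (3 and 0 counts) and 0.0575 and 0.158 in Pcgf5KO (1 and 2 counts). It had 0.439 and 0.853 CPM in DKO (8 and 17 counts) and 0.629 in WT (11 counts). The single knockouts were at or below the 3 counts that a 0 allows, and the DKO and WT libraries were all above them without overlap. The fitted log2 fold change was 2.90 ± 0.90 in DKO against Pcgf3KO (edgeR adjusted p = 0.150) and 2.54 ± 0.93 in DKO against Pcgf5KO (adjusted p = 0.134). Against WT it was -2.88 ± 1.06 in Pcgf3KO (adjusted p = 0.216), -2.52 ± 1.07 in Pcgf5KO (adjusted p = 0.238) and 0.02 ± 0.78 in DKO (adjusted p = 0.990). With so few counts the fitted values moved with single libraries. For DKO against Pcgf3KO the log2 fold change was 6.47 without Pcgf3KO replicate 1, which left only the library at 0 and makes the value no bound, and 2.02 without replicate 2.

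Hoxb13 passed the test under other settings of edgeR. With no filter on low counts, 33 Hox genes and 25479 genes in all were tested, and Hoxb13 was the 1 Hox gene called, higher in DKO than in Pcgf3KO (adjusted p = 0.0268). That is 3.03% of the Hox genes tested, and 5.32% of all genes were called in that comparison. Without DKO replicate 1 it passed in DKO against Pcgf3KO (adjusted p = 0.00835) and against Pcgf5KO (0.0187), and as lower in Pcgf3KO than in WT (0.0290), in comparisons that called 12.6%, 16.0% and 20.6% of all genes. Without DKO replicate 2 it passed as lower in Pcgf3KO than in WT (0.0314), where 20.2% of all genes were called. The values of Hoxb13 rest on 0 to 17 counts a library.

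Hoxd1 (chromosome 2, 74762980 to 74765142, plus strand), a gene of the 3′ end with a role in pain-sensing neurons, had 0.453 and 0.387 CPM in Pcgf3KO and 0.173 and 0.237 in Pcgf5KO. It had 0.877 and 0.803 CPM in DKO (16 counts in each library) and 0.400 in WT (7 counts). Both DKO libraries lay above all others, and WT lay among the Pcgf3KO libraries. The log2 fold change was 1.95 ± 0.56 in DKO against Pcgf5KO (edgeR adjusted p = 0.0836), 0.94 ± 0.46 against Pcgf3KO (adjusted p = 0.315) and 1.02 ± 0.60 against WT (95% interval -0.32 to 2.37, adjusted p = 0.384). Without DKO replicate 2, Hoxd1 passed as higher in DKO than in Pcgf5KO (adjusted p = 0.0259), with 1 DKO library left and 42.3% of all genes called, beside 2.28% with all 7 libraries.

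Hoxa7 had 1 and 7 counts in Pcgf3KO, 5 and 11 in Pcgf5KO, 10 and 9 in DKO and 12 in WT replicate 2. In CPM, Pcgf3KO lay below DKO and WT replicate 2. The Pcgf5KO libraries (0.288 and 0.869 CPM) overlapped Pcgf3KO and lay on both sides of DKO and of WT replicate 2 (0.686). The log2 fold change was -1.64, -0.28 and -0.49 in Pcgf3KO, Pcgf5KO and DKO against WT (edgeR adjusted p of 0.450 to 0.890). Leaving out Pcgf3KO replicate 1 or 2 moved the first value to -0.79 or -3.59, and leaving out Pcgf5KO replicate 1 or 2 moved the second to 0.38 or -1.19.

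**Figure D4:**
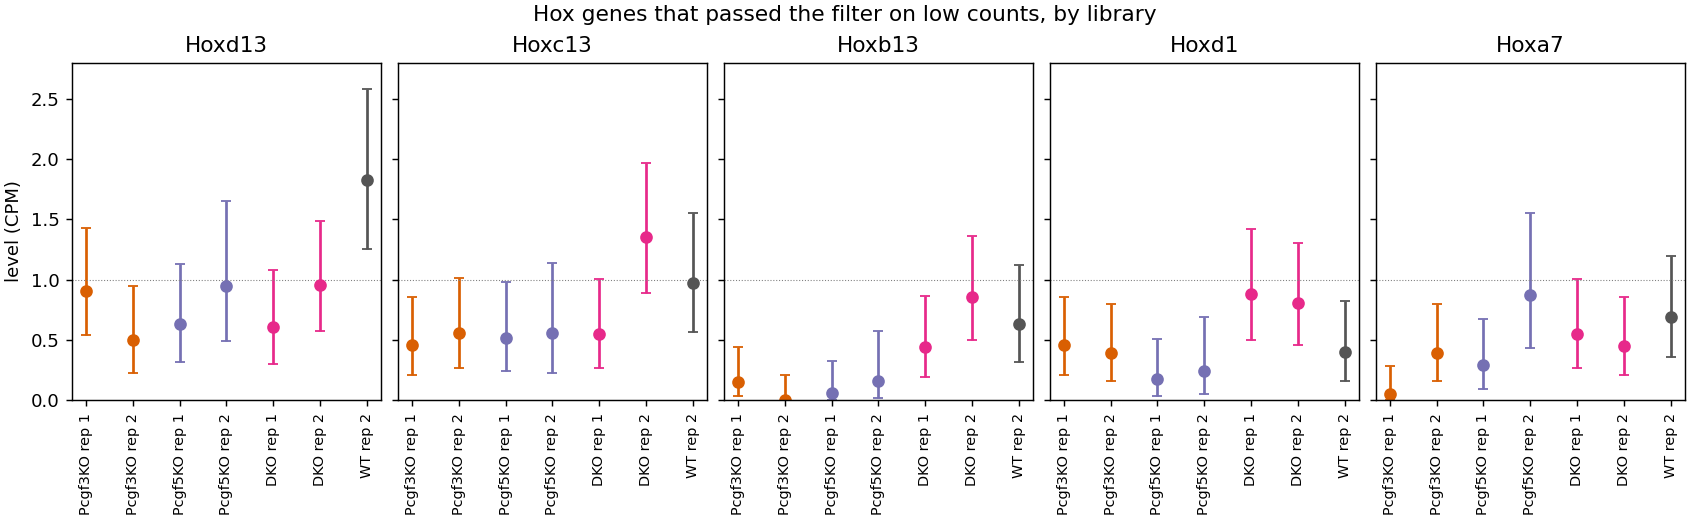
Level (CPM, vertical axis) of Hox genes that passed the filter, in each complete library (horizontal axis), with bars for the exact Poisson 95% interval of the count and a dotted line at 1 CPM. Hoxd13 is above that line in WT only and Hoxc13 in DKO replicate 2 only, Hoxb13 is near 0 in the single knockouts, and both DKO libraries are the highest for Hoxd1.

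The 33 untested genes gave 199 of the 610 counts (32.6%). Hoxb9 had 31 counts over the 7 libraries, Hoxc4 28, Hoxb4 21, Hoxd9 17, Hoxb7 16, Hoxd8 12, Hoxd4 11 and Hoxa13 10. Hoxc4, of the neck region, had 2 and 0 counts in Pcgf3KO, 5 and 3 in Pcgf5KO, 2 and 7 in DKO and 9 in WT. WT was the highest library for Hoxc4, and Pcgf5KO lay within the range of DKO. The other 25 untested genes had at most 7 counts each over all libraries.

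WT replicate 1 lists 7 Hox genes and allows the only look at the spread of Hox genes within WT. Scaled to the genes that both WT tables list, Hoxa7 had 2.02 CPM in WT replicate 1 and 3.90 in replicate 2, and Hoxb9 had 3.47 and 1.95. Hoxb7 had 0.867 and 0.975, and Hoxa13 had 0.578 and 0.650. Hoxa2, Hoxb6 and Hoxd3 had 0 counts in both. Hoxa7 and Hoxb9 thus differed between the WT libraries in opposite directions, on few counts. In WT replicates 1 and 2, Hoxa7 had 7 and 12 counts and Hoxb9 had 12 and 6. Whether these differences exceed counting error was not tested.

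Neighbouring genes bear on which reads belong to which Hox gene. The library kit does not mark strand, and how reads shared by overlapping genes were counted is not given in the sources used here. In the GENCODE annotation 23 Hox genes share no exon base with another listed gene, among them Hoxb13, Hoxc13, Hoxd1 and Hoxd13. The genes that share most of their exon bases are Hoxd3 (62.8%), Hoxb3 (52.9%) and Hoxd4 (52.3%), so the counts of 0 for Hoxd3 and Hoxb3 are uncertain. In a list of 15 noncoding and antisense genes of the clusters, 12 were at 0 in all 7 libraries, among them Hotair, Hottip and Mir10a. The highest of the list was Mir196a-1, a microRNA gene of the Hoxb cluster, with at most 5 counts. The list does not hold all such genes: 30 others lie between the outer ends of the clusters, with 21 at 0 in all 7 libraries. Gm53 and Haglr had the most counts of these and were named after their values were seen.

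Gm53, a long noncoding RNA gene within the span of the Hoxb cluster, had 281 counts over the 7 libraries, more than any Hox gene. It had 17 and 15 counts in Pcgf3KO, 25 and 15 in Pcgf5KO, 79 and 87 in DKO and 43 in WT, or 0.855 and 0.830, 1.44 and 1.19, 4.33 and 4.37, and 2.46 CPM in these groups. Both DKO libraries were the highest, WT came next, and the single knockouts were the lowest. By edgeR, Gm53 was higher in DKO than in Pcgf3KO, by 2.31 ± 0.27 on the log2 scale (adjusted p = 0.00502), and higher than in Pcgf5KO by 1.63 ± 0.26 (adjusted p = 0.0234), where 1.74% and 2.28% of all tested genes were called. Against WT it passed in no knockout (-1.52 ± 0.34 in Pcgf3KO, -0.84 ± 0.33 in Pcgf5KO and 0.79 ± 0.30 in DKO; edgeR adjusted p = 0.0530, 0.207 and 0.193). Both Gm53 calls ended without either Pcgf3KO library (adjusted p of 0.0805 to 0.137). The call against Pcgf5KO ended without either Pcgf5KO library (0.298 and 0.324), while the log2 fold change stayed at 2.29 to 2.33 against Pcgf3KO and 1.51 to 1.80 against Pcgf5KO whichever knockout library was left out. Haglr, a long noncoding RNA gene of the Hoxd cluster, had 2 and 8 counts in Pcgf3KO, 1 and 13 in Pcgf5KO, 2 and 9 in DKO and 6 in WT. The libraries of each knockout were far apart for Haglr, all groups overlapped, and edgeR called it in 0 of the 6 comparisons.

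Of 13 other genes near the clusters, 10 were tested and 0 were called by edgeR or DESeq2 in any comparison, with 1 or 2 at an unadjusted p under 0.05 in edgeR in each. As edgeR called 0.14% to 3.22% of all tested genes, 10 genes would give fewer than 1 call. Fitted values lay above WT for 10 of the 10 in Pcgf3KO, 7 in Pcgf5KO and 9 in DKO. Their median log2 fold changes were 0.14, 0.11 and 0.16, beside 0.00, 0.00 and 0.01 over all tested genes, all against the same WT library. Of the 13, 10 stood at 1 CPM or more in every library. The ones tested included Cbx1, a heterochromatin protein gene near Hoxb, at 376 to 473 CPM, and Skap2, next to Hoxa, at 31.1 to 43.3 CPM.

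The Polycomb machinery was expressed in all groups. Against WT, edgeR called 1.08% of all tested genes higher and 1.28% lower in Pcgf3KO, 1.31% higher and 1.68% lower in Pcgf5KO, and 1.33% higher and 1.89% lower in DKO. All 26 PRC1 genes were tested, and those called were Pcgf3 in Pcgf3KO and Pcgf5 in Pcgf5KO, both lower. In DKO 0 PRC1 genes were called by edgeR or DESeq2, with 7 at an unadjusted p under 0.05 in edgeR. Of 12 PRC2 genes, all tested, those that rose numbered 2 in Pcgf3KO, 1 in Pcgf5KO and 2 in DKO; no other passed. In DKO these were Suz12, a core subunit (log2 fold change 0.76 ± 0.12, adjusted p = 0.0131), and Jarid2, which helps to recruit PRC2 (0.42 ± 0.10, adjusted p = 0.0471). Suz12 had 464 and 370 CPM in DKO, against 240 in WT. The median log2 fold change in DKO was 0.08 for PRC1 and 0.18 for PRC2, beside 0.01 for all tested genes. Neural, ES cell and primitive endoderm markers apart, every edgeR call against WT of a gene named here, above or below ended without either Pcgf5KO library. All of these calls but Suz12 in DKO and Hand1 in Pcgf5KO ended without either Pcgf3KO library. The adjusted p of the calls that ended ran over 0.0511 to 0.283. With the replicate block Jarid2 in DKO ended too (adjusted p = 0.0535).

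Of 22 genes known to activate Hox genes or to carry the retinoic acid, Wnt and Fgf signals that do, 20 were tested. Against WT, edgeR called 0 in Pcgf3KO (5 at an unadjusted p under 0.05, and 0 called by DESeq2), 1 higher in Pcgf5KO (Rarg, a retinoic acid receptor, 0.50 ± 0.09, adjusted p = 0.0218) and 1 lower in DKO. The gene called lower in DKO was Cdx2, a homeobox activator of posterior Hox genes, with 0.352 and 0.332 CPM in Pcgf3KO, 0.575 and 0.474 in Pcgf5KO, 0.0548 and 0.301 in DKO and 2.00 in WT. Its log2 fold change in DKO was -3.43 ± 0.65 (adjusted p = 0.0256), and DESeq2 called 0 of the 14 activators to which it gave an adjusted p. As for Hoxd13, the WT library lay above all knockout libraries. Of 9 cofactor genes 8 were tested. Meis1, whose protein binds DNA with Hox proteins, fell in DKO (-1.86 ± 0.34, adjusted p = 0.0214). Pknox2, of the same family, rose in DKO (1.43 ± 0.28, adjusted p = 0.0303) and in Pcgf3KO (1.34 ± 0.29, adjusted p = 0.0455).

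Markers of other cells also differed between the libraries. Fibroblasts express Hox genes, and in bulk RNA fewer cells of a type and less RNA per cell cannot be told apart. The summed level of 23 feeder fibroblast markers was 138 and 150 CPM in Pcgf3KO, 172 and 176 in Pcgf5KO, 169 and 205 in DKO, and 247 in WT. Of the 19 tested, edgeR called 5 lower in Pcgf3KO, 1 in Pcgf5KO and 5 in DKO against WT and no other, and the list's median log2 fold change was -0.81, -0.54 and -0.57. The 4 most abundant were Tagln (17.5 to 51.4 CPM), Col5a1 (19.8 to 35.7), Mmp2 (20.2 to 36.1) and Thy1 (12.6 to 33.8), and S100a4 was at 0 in every library. WT and DKO replicate 2 were the highest libraries for this list, as they were for the Hox sum. DKO replicate 1 lay below both Pcgf5KO libraries, unlike its Hox sum, and Tagln was lowest in the DKO libraries (17.7 and 17.5 CPM).

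The summed level of 12 markers of primitive streak and posterior mesoderm, the embryonic cells that first switch on Hox genes, was 20.98 and 22.91 CPM in Pcgf3KO, 18.0 and 16.0 in Pcgf5KO, 24.3 and 57.7 in DKO, and 56.8 in WT. Hand1 gave 37.2% and 46.9% of it in Pcgf3KO, 37.7% and 31.7% in Pcgf5KO, 68.2% and 81.7% in DKO and 81.0% in WT, and Msgn1 was at 0 in every library. Of 9 tested, edgeR called 1 lower in each knockout against WT (Hand1 in each single knockout, Cdx2 in the double knockout) and no other. WT and DKO replicate 2 were the highest, and this order came from Hand1. Without it, a choice made after the values were seen, the other 11 genes summed to 13.2 and 12.2 CPM in Pcgf3KO, 11.2 and 10.9 in Pcgf5KO, 7.73 and 10.5 in DKO and 10.8 in WT.

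Neural markers (8 genes) summed to 48.4 and 47.0 CPM in Pcgf3KO, 61.9 and 61.0 in Pcgf5KO, 59.3 and 64.8 in DKO, and 89.8 in WT. Olig2 gave most of this sum, with 44.2 and 43.2 CPM in Pcgf3KO and 56.7 and 56.4 in Pcgf5KO. Olig2 had 57.0 and 61.9 CPM in DKO and 83.6 in WT, and the place of DKO above Pcgf3KO came from it. Primitive endoderm markers (8 genes) summed to 6.94 and 6.58 CPM in Pcgf3KO, 8.80 and 10.4 in Pcgf5KO, 9.54 and 12.2 in DKO, and 16.5 in WT. The sum of ES cell markers (10 genes, among them Pou5f1, Nanog and Sox2) ran the other way, with 3324 and 3413 CPM in Pcgf3KO, 3443 and 3486 in Pcgf5KO, 3193 and 3300 in DKO, and 2885 in WT. WT was the lowest library for Pou5f1, Klf4, Tdgf1 and Dppa5a only, and the highest for Esrrb (496 CPM). Tdgf1 had 597 CPM in WT against 667 to 871 in the knockouts, and Dppa5a had 403 against 489 to 711. The part that feeder cells and differentiating cells have in the Hox counts was not tested.

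**Figure D5:**
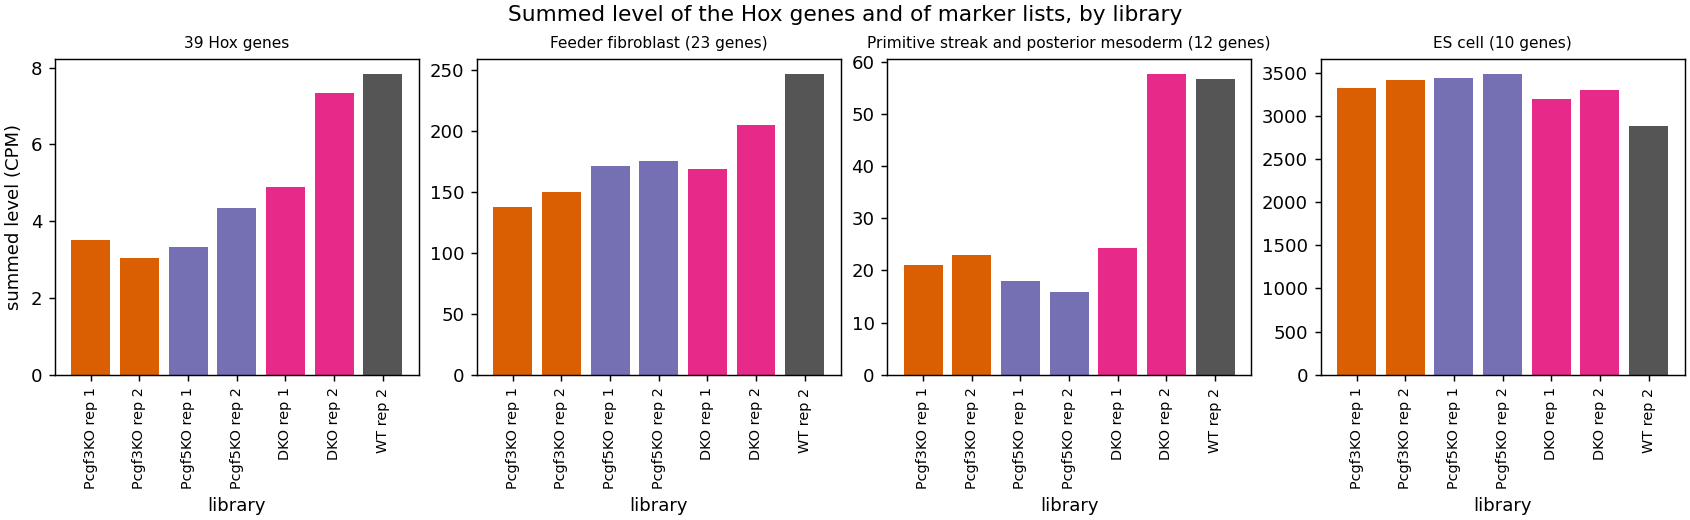
Summed level (CPM, vertical axes starting at 0, each panel with its own scale) of the 39 Hox genes, 23 feeder fibroblast markers, 12 primitive streak and posterior mesoderm markers and 10 ES cell markers, in each complete library (horizontal axis). The bars for WT and DKO replicate 2 are the highest in the first 3 panels, and the WT bar is the lowest in the ES cell panel.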

How the data were processed

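The authors deposited 1 table of raw counts (whole numbers, with Ensembl gene identifiers and positions) for each of the 8 libraries, per the file headers. The submitters' processing notes name TopHat2 2.0.12, Cufflinks 2.2.1, HTSeq 0.6.0 and mm10 without roles. The annotation release and strand setting were not given in the sources used here. The WT replicate 1 table stops at 17.2% of the gene list, and its unlisted genes were treated as not measured. Symbols were matched for 46488 of 47069 identifiers in GENCODE M21, where all 39 Hox genes have the same positions as in the tables. Exon lengths and overlaps come from M21.

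CPM is the count per 1000000 counts of the library, and 1 count is 0.0502 to 0.0790 CPM. Tests used edgeR 4.0.16 in R 4.3.3 (TMM, filterByExpr, glmQLFit and glmQLFTest, group as the only term) on the 7 complete libraries in 1 fit, with 3 residual degrees of freedom, checked on simulated data. The 1 WT library is assumed to vary like the other groups. Alternatives were DESeq2 1.42.0, its size factors in edgeR, no filter, a replicate block, the genes listed in all 8 libraries and leaving out each library. Intervals are 95%, exact Poisson for sums and exact binomial (Clopper-Pearson) for ratios. Promoters are from RefSeq. 1 gene is not reported here, but counts and sums over the set include it.

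The genes, lists and tests were chosen with earlier results of these data known. Named with a value in every library are Hox genes at 1 CPM or more in any library or past the threshold in any comparison. Hoxb13, Hoxd1, Hoxa7 and Hoxc4 were named in full after their values were seen. Of each other list, up to 4 genes with the smallest p in DKO against WT could be named, with the 4 most abundant feeder markers, Pcgf3 and Pcgf5. Other genes named were chosen after their values were seen.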

Additional observations from a re-analysis of the deposited data

How the results depend on the processing

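Of 67 alternative values for the number of Hox genes called by edgeR or DESeq2, 60 kept the main count of 0 and 7 gave calls. Fits on the genes listed in all 8 libraries tested only 1 Hox gene, and fits without WT replicate 2 tested only 2. DESeq2 gave an adjusted p to 1 Hox gene. With so few genes tested, a count of 0 in these fits says little. With no filter on low counts 1 gene was called in DKO against Pcgf3KO. Leaving out 1 library at a time gave 0 to 2 calls in Pcgf3KO against WT, 0 to 1 in DKO against WT, 0 to 1 in DKO against Pcgf3KO and 0 to 1 in DKO against Pcgf5KO. It gave 0 in Pcgf5KO against WT and in Pcgf5KO against Pcgf3KO. The leave-out calls all came from leaving out a DKO library, which left 1 library in that group and called 12.2% to 42.3% of all genes. Leaving out another library called 0.0191% to 3.34% of all genes and 0 Hox genes. DESeq2 gave no adjusted p to any Hox gene outside DKO against WT, so it has no value in the other comparisons.

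Same-numbered libraries deviated together with correlations of -0.06 to 0.20 over 2702 genes. Such low values do not settle whether the replicate numbers of the labels pair the libraries. The replicate block called 9.78% of all genes in DKO against Pcgf5KO (2.28% without it) and 3.18% in DKO against Pcgf3KO (1.74%). In Pcgf5KO against Pcgf3KO it called 0.396% (0.14%). Against WT it called 2.65% in Pcgf3KO (2.36%), 4.39% in Pcgf5KO (2.99%) and 3.15% in DKO (3.22%). With the replicate block 0 Hox genes were called in each of the 6 comparisons, and the lowest adjusted p was 0.0642.

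For the summed clusters, the log2 ratio to WT kept its sign in 45 of 48 alternative values. In DKO the Hoxb ratio ranged over -0.37 to 0.16 and the Hoxc ratio over -1.27 to 0.11 when 1 DKO library was left out, and the Hoxd ratio was 0.22 without Hoxd13. Without its most abundant gene the ratio was -0.83 for Hoxa (without Hoxa7), -1.01 for Hoxb (without Hoxb13) and -2.53 for Hoxc (without Hoxc13) in Pcgf3KO, and -1.21 for Hoxb in Pcgf5KO. With TMM library sizes Hoxb in Pcgf3KO was -1.55, against -1.57. The cause of these shifts was not tested beyond the left-out gene or library itself. Leaving out WT replicate 2 gives no cluster value, since WT replicate 1 does not list whole clusters.

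At 0.5 CPM in every library of a group the Hox genes present were 2 in Pcgf5KO, 3 in DKO and 5 in WT. At 1 CPM leaving out 1 DKO library gave 0 to 1 in DKO. Depth limits every Hox value. In 29 of the 39 genes no library passed 5 counts, so changes below that count were not detectable at this depth. That none of these genes rose above that count in any group follows from how they were picked, and is no result about the knockouts.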
